A study of Homo sapiens with 6 samples.

Results

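Cancer-testis antigen genes were followed in RNA-seq counts from H2122, a human lung cancer cell line, by the gene symbols of their families: MAGEA, MAGEB, MAGEC, GAGE, PAGE, XAGE, SSX, CTAG, SPANX, PRAME and the numbered CT genes. The symbols matched 102 of the 59050 genes in the count tables. Of these, 13 were MAGEA, 11 MAGEB, 3 MAGEC, 13 GAGE, 6 PAGE, 5 XAGE, 8 SSX, 3 CTAG, 11 SPANX, 9 CT45A and 12 CT47A genes, with PRAME and 7 other CT genes. The data are 6 libraries, 3 labelled SMARCA4 KO and 3 of the parental line labelled WT, and cells of both groups received vehicle only. A further number in the sample titles is the same for every knockout library and differs between the parental ones, and its meaning is not given. No label says whether the knockout is 1 clone or several, or whether replicates came from separate cultures. The p-values therefore cover the spread among these libraries alone, which may be technical.

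Cancer-testis genes are transcribed in male germ cells and silent in most adult tissues, and many of them are switched on again in tumours, where their peptides can be shown to T cells. Most lie on the X chromosome in families of recent copies. Their promoters are commonly held silent by DNA methylation at CpG dinucleotides, with histone-modifying repressors and, for germline genes, a Polycomb complex containing E2F6 and MGA. MAGE proteins bind RING-type ubiquitin ligases, and PRAME is a substrate receptor of a cullin ligase. SMARCA4, the gene knocked out here, encodes an ATPase of the SWI/SNF complexes, which move nucleosomes.

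Upstream sequences are printed because they precede the genes on which the MAGE results turn. Each is the 250 bases before the RefSeq start on GRCh38.p14, read along the gene, with CpG dinucleotides in capitals. The MAGEA3 sequence covers chrX:152698544-152698793 on the plus strand and holds 15 CpG. The MAGEA12 sequence covers chrX:152733507-152733756 on the plus strand and holds 5, and that of MAGEC2 covers chrX:142205291-142205540 on the minus strand and holds 6.
MAGEA3: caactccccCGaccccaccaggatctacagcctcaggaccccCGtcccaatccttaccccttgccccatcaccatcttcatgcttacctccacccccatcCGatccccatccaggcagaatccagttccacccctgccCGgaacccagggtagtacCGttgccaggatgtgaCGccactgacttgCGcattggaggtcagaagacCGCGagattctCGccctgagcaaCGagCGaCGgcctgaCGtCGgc
MAGEA12: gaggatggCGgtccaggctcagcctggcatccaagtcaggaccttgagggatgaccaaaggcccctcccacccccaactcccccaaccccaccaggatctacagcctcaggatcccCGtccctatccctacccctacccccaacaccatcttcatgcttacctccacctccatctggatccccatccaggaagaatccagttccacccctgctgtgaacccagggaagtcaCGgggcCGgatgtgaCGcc
MAGEC2: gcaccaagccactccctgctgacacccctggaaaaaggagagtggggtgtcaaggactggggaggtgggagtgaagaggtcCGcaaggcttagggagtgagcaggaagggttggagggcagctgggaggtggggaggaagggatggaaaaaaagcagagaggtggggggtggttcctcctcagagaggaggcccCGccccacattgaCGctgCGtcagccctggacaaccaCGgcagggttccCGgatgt

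The window of MAGEA6, a near-identical copy of MAGEA3, carried the same bases at 300 of 300 positions, from 250 before the start to 50 after it. These are bases of the reference genome, and the sequence in H2122 cells was not examined. Their coding sequences, each of 942 bases, differed at 18 positions and were 98.1% identical, and the proteins shared 301 of 314 residues (95.9%). The longest run without a difference was 308 bases. Coding positions 573 to 632, the stretch of 60 bases with the most differences, are shown with the 4 differing bases in capitals, as an example of what a read must span to be placed on one copy.
MAGEA3: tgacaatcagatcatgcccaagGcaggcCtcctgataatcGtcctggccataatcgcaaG
MAGEA6: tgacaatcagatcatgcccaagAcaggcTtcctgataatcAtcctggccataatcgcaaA

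Copies of this kind limited what could be counted. Reads that aligned to more than 1 place were set aside in the deposited files, as 4.99% to 5.29% of all reads per library. In GENCODE 29, which lists 98 of the 102 members, 96 lie on chromosome X, PRAME lies on chromosome 22 and CT62 on chromosome 15. Among 95 members with a translatable coding sequence, 45 shared at least 95% of their residues with another member of their family, in 11 groups. Only the longest annotated coding sequence per gene was compared, and the share is of the longer protein. CTAG1A and CTAG1B, with 210 and 180 residues, came to 68.1% this way. GAGE12F and GAGE2E came to 94.0%, although all 110 residues of GAGE2E matched. The 45 can therefore understate the near-identical copies. The largest groups were all 12 CT47A genes, 9 GAGE genes and 8 CT45A genes. The share of each member's transcript windows of 50 bases that occurs in no other annotated gene ranged from 0% to 100% with a median of 43.3%, and was under 50% for 52 of the 98.

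Of the 102 members, 58 (56.9%) had no read in any library, against 43.5% of all 59050 symbols, and 21 (20.6%) had at least 10 reads over the 6 libraries, against 40.2%. All CT45A and CT47A genes were at 0 reads, as were CTAG1A and CTAG1B, which encode the antigen NY-ESO-1, and XAGE1A and XAGE1B. These genes have own-window shares of at most 29.4%, so silence and loss of reads to multiple alignment cannot be told apart for them. Of the members at 0 reads, 39 had fewer than 50% windows of their own and 18 had 50% or more. Among those 18 were MAGEA8 (99.4% own windows), MAGEB3 (100%) and PAGE4 (100%), for which 0 reads allow up to 3 counts per library, or 0.0501 to 0.0544 CPM, the counts per library scaled to a common library size. Limits and intervals of this kind cover counting error only.

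**Figure D1:**
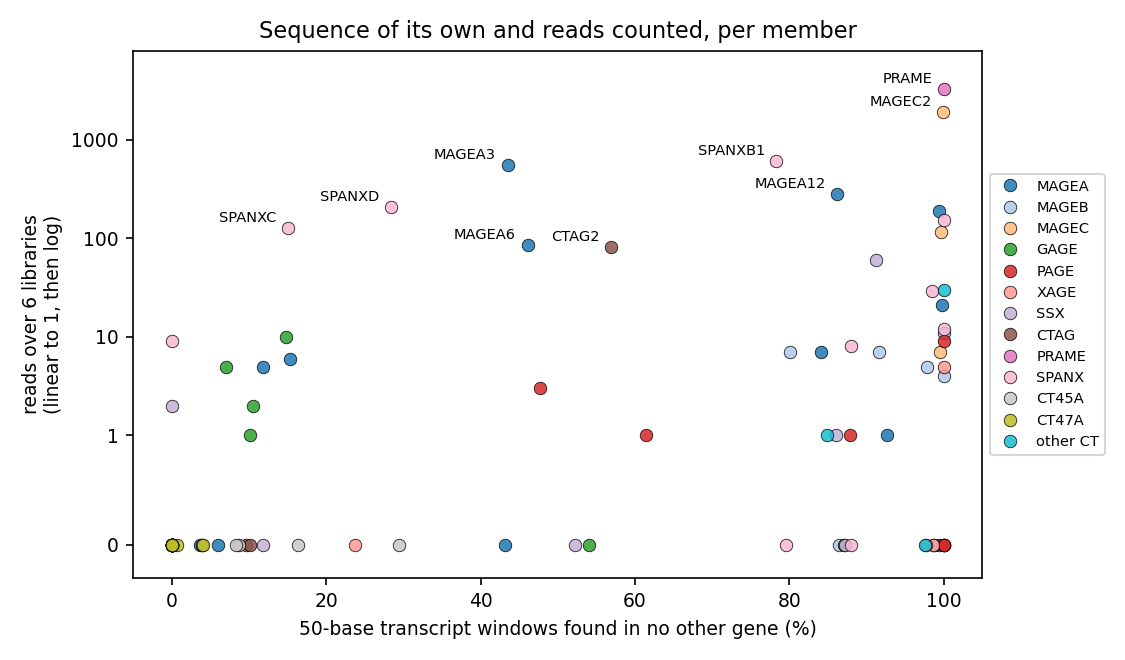
Each point is 1 of the 98 members in the annotation, coloured by family. The x axis gives the percentage of its 50-base transcript windows found in no other gene, and the y axis its reads over the 6 libraries (linear to 1, then logarithmic). MAGEC2 and PRAME, with the most reads, have nearly all windows to themselves, and the 12 CT47A genes sit together at 0 reads and at most 4.0% own windows.

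Each library held 55120937 to 59917980 reads on genes. SMARCA4 itself stood at 20.7, 19.3 and 24.9 CPM in knockout libraries and at 232, 214 and 335 CPM in parental libraries (log2 fold change -3.59, SE 0.22, edgeR adjusted p = 0.000176). On the second principal component, with 19.0% of the variance, parental replicate 3 lay far from every other library, and results that change without it are given with both values.

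The members together had 1755, 1656 and 1726 reads in knockout libraries and 771, 884 and 1181 in parental libraries. Every knockout library was above every parental one, and parental replicate 3 was the highest of its group. MAGEC2, PRAME and MAGEA3 made up most of the reads: they held 29.9%, 36.4% and 10.4% of the knockout sum and 13.9%, 50.8% and 0.529% of the parental sum. In an edgeR quasi-likelihood test over all genes, a gene was tested if it reached about 0.173 CPM (10 reads) in at least 3 libraries and called if its Benjamini-Hochberg adjusted p was under 0.05. Of the 102 members, 12 passed the filter and 90 did not. Of the 12, 4 rose in the knockout (MAGEA3, MAGEA12, MAGEC1 and MAGEC2), 1 fell (SPANXN4) and 7 did not pass. Among all 17809 genes tested, 27.6% were called, 13.3% rising and 14.3% falling, and among the 522 tested genes of chromosome X 10.3% rose and 17.2% fell. MAGEA3 and MAGEA12 reached the filter level in knockout libraries only. MAGEC1 and SSX1 reached it in 3 knockout libraries, and in 2 and 1 parental libraries. MAGEA6 and SPANXN4 reached it in 3 parental and 2 knockout libraries. CTAG2 reached it in 2 parental libraries only and was not tested. The 12 are therefore a selection that depends on the levels in each group, and their counts of rising and falling genes are a description.

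**Figure D2:**
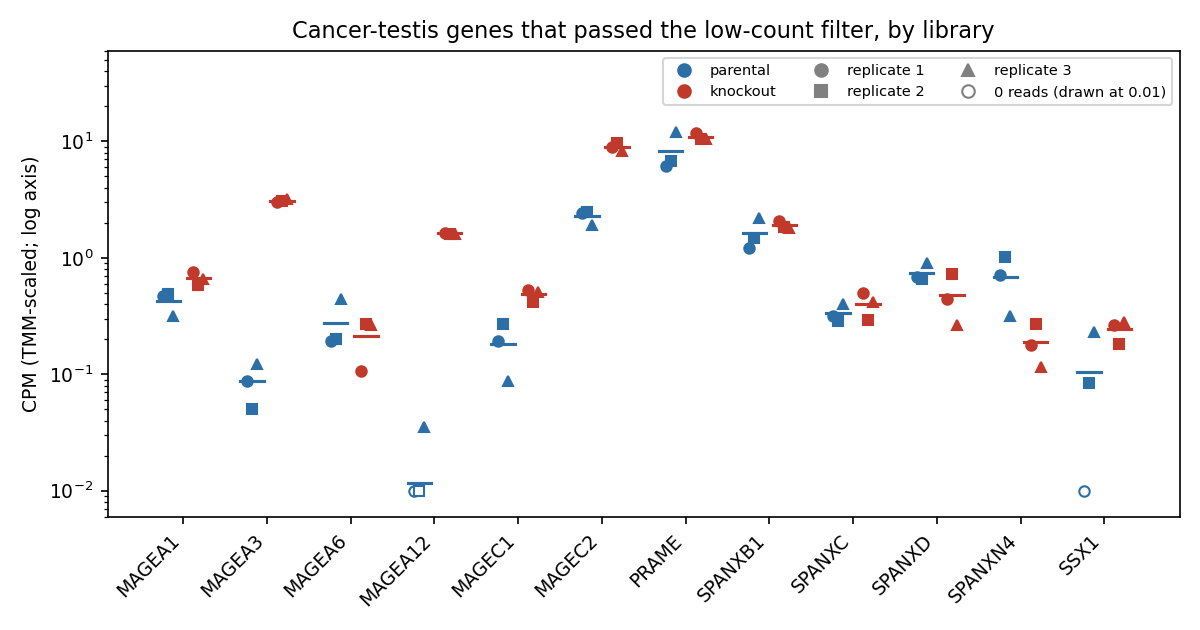
CPM on a log axis for the 12 members that passed the filter, with 1 marker per library (blue parental, red knockout, shape by replicate) and a bar at the mean of each group. Open markers are libraries with 0 reads, drawn at 0.01. The groups are far apart for MAGEA3, MAGEA12 and MAGEC2 and overlap for MAGEA6, PRAME, SPANXB1, SPANXC, SPANXD and SSX1.

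MAGEA3 encodes a MAGE protein that binds the ubiquitin ligase TRIM28 and has been used as a target of cancer vaccines. It had 171, 171 and 192 reads in knockout libraries and 5, 3 and 7 in parental libraries, or 3.02, 3.10 and 3.18 CPM against 0.0876, 0.0502 and 0.123 CPM. The knockout libraries lay close together, far above all parental libraries. In these bulk libraries, more cells with the transcript and more transcript per cell cannot be told apart. The log2 fold change was 5.13 (SE 0.30, edgeR adjusted p = 0.000142), a ratio of summed CPM of 35.9 with a 95% counting interval of 21.6 to 64.7. The call was made under all 13 alternatives that tested MAGEA3 by itself, with log2 fold changes of 4.85 to 5.41.

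MAGEA6, the near-identical copy, did not pass the test. It had 6, 15 and 16 reads in knockout libraries and 11, 12 and 25 in parental libraries, and the groups overlapped. Its log2 fold change was -0.37 (SE 0.50, edgeR adjusted p = 0.634), and 0.08 without parental replicate 3. Own windows of 50 bases were 43.5% for MAGEA3 and 46.1% for MAGEA6, so similar parts of both genes were countable. The number of MAGEA3 reads per MAGEA6 read was 28.5, 11.4 and 12 in knockout libraries and 0.455, 0.25 and 0.28 in parental libraries. On the log2 scale the ratio was 3.98 ± 0.743 (SD, n = 3) against -1.66 ± 0.458 (SD, n = 3). Its groups did not overlap, and the two-sided exact permutation p was 0.1, the smallest that 3 against 3 libraries can give. The ratio describes MAGEA3 relative to MAGEA6. Its separation follows from the MAGEA3 counts already given and is no further support for the rise of MAGEA3. With the reads of both copies summed into 1 feature, the pair rose by a log2 fold change of 3.18 (edgeR adjusted p = 0.00118). That sum too rests on MAGEA3, with 534 reads against 37 of MAGEA6 in knockout libraries.

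MAGEA12, a further member of the MAGEA family, had 93, 89 and 97 reads in knockout libraries and 0, 0 and 2 in parental libraries. Those are 1.64, 1.62 and 1.61 CPM against 0, 0 and 0.0352 CPM, so the gene was at or under the limit of 3 counts in every parental library. The ratio of summed CPM was 140.8 with a 95% counting interval of 38.6 to 1169 (edgeR adjusted p = 0.000619). The fitted log2 fold change was 6.89 (SE 0.62), and 9.53 without parental replicate 3, which held both parental reads (edgeR adjusted p = 8.06e-08). With 0 reads then left in the parental group, the latter depends on the prior count and is no bound. Of the MAGEA12 windows of 50 bases 86.2% occur in no other gene, and its protein shared 85.4% of residues with that of MAGEA3. It shares 33 exon bases (1.70% of its own) with the neighbouring pseudogene CSAG4.

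MAGEA12 starts back to back with CSAG1, another cancer-testis gene, which is no member by symbol. Their RefSeq starts lie 36 bases apart on opposite strands (152733757 for MAGEA12 and 152733721 for CSAG1), and the annotated gene bodies are 44 bases apart. CSAG1 had 61, 63 and 66 reads in knockout libraries and 0, 1 and 1 in parental libraries, and it rose (edgeR adjusted p = 0.000255). The ratio of summed CPM was 95.9 with a 95% counting interval of 26.2 to 798. No exon base of CSAG1 overlaps MAGEA12, and 92.2% of its windows are its own, so the reads of the pair were counted on separate sequence.

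The block of chromosome X from MAGEA3 (152698752 to 152702347, plus strand) to MAGEA6 (152766136 to 152769747, minus strand) spans 70996 bases and holds 10 annotated genes. Besides MAGEA3, MAGEA12 (152733779 to 152737669) and CSAG1 (152727484 to 152733735), no gene of the block had over 3 reads in a library except MAGEA6. MAGEA2B had 1, 1 and 3 reads in knockout libraries and 0 in each parental library, and MAGEA2 had none. MAGEA2 and MAGEA2B have 3.62% and 11.9% windows of their own, and the level of these copies cannot be read from the counts. The block was chosen for display after its values were seen.

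**Figure D3:**
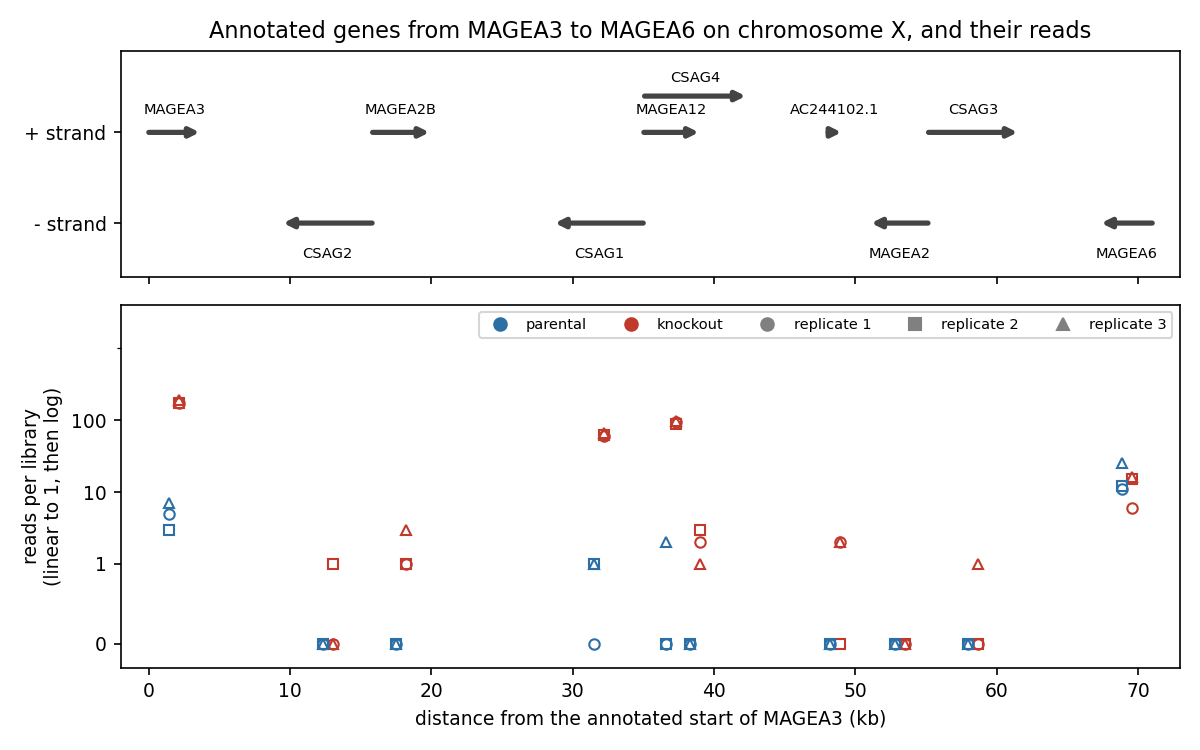
The upper panel shows the 10 annotated genes from MAGEA3 to MAGEA6 as arrows along their strand, by distance from the start of MAGEA3 in kilobases. The lower panel gives the reads of each gene in each library (linear to 1, then logarithmic; blue parental, red knockout). Knockout libraries stand above parental ones at MAGEA3, CSAG1 and MAGEA12, and both groups share 1 range at MAGEA6.

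MAGEA1, the first human tumour antigen of this family to be cloned, had 43, 32 and 40 reads in knockout libraries and 27, 29 and 18 in parental libraries. The groups did not overlap on the CPM scale, at 0.760, 0.581 and 0.663 CPM against 0.473, 0.486 and 0.317 CPM, but non-overlap held for 49.8% of all genes tested. Its log2 fold change of 0.65 (SE 0.26) did not pass (edgeR adjusted p = 0.113), nor did it under any of 13 alternatives. MAGEA11, a coregulator of the androgen receptor, had 2, 0 and 2 reads against 7, 4 and 6 and was not tested. MAGEA4, MAGEA5, MAGEA8, MAGEA9, MAGEA9B and MAGEA10 had at most 3 reads in any library.

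MAGEC2, a partner of TRIM28, had the most reads of the MAGE genes. It stood at 9.02, 9.60 and 8.21 CPM in knockout libraries and at 2.43, 2.48 and 1.9 CPM in parental libraries. In reads these were 510, 529 and 496 against 139, 148 and 108, with all parental libraries far below the knockout ones. It rose by a log2 fold change of 1.98 (SE 0.17, edgeR adjusted p = 0.0005), and the call held under all 14 alternatives with log2 fold changes of 1.81 to 2.04. The gene lies on chromosome X from 142202345 to 142205290 and 99.9% of its windows are its own, so near-identical copies do not bear on its count.

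MAGEC1, whose protein carries a long stretch of repeats before its MAGE domain, was counted at a much lower level. It had 30, 23 and 31 reads in knockout libraries and 11, 16 and 5 in parental libraries, at 0.530, 0.417 and 0.513 CPM against 0.193, 0.268 and 0.0879 CPM. The groups did not overlap, and the gene rose by a log2 fold change of 1.40 (SE 0.39, edgeR adjusted p = 0.0429). That call was made under 6 of 13 alternatives and lost under 7, one of them the replicate block. Leaving out a knockout library, whichever of the 3, or parental replicate 1 removed it (adjusted p up to 0.137), and it was also lost with RLE factors (0.0507) and with no low-count filter (0.0681). MAGEC3 had 0 reads in knockout libraries and 0, 6 and 1 in parental libraries. The MAGEB family was near the limit throughout, with 18 reads over 11 genes in knockout libraries together and 16 in parental libraries. MAGEB2 was its only gene with 10 reads or more, at 1, 0 and 2 against 2, 3 and 3.

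PRAME, which represses retinoic acid receptor signalling, had the most reads of all members. It stood at 11.7, 10.4 and 10.5 CPM in knockout libraries and at 6.20, 6.83 and 12 CPM in parental libraries. Parental replicate 3 exceeded all knockout libraries while the other parental libraries lay below them. The log2 fold change of 0.38 (SE 0.27) did not pass (edgeR adjusted p = 0.344). Leaving out that library gave 0.69, which passed (adjusted p = 3.36e-05), in a fit that called 61.6% of all genes tested. PRAME lies on chromosome 22 from 22547701 to 22559361, and none of its windows occurs in another annotated gene.

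The SPANX genes encode small sperm proteins of the nuclear envelope. SPANXB1 stood at 2.07, 1.83 and 1.79 CPM in knockout libraries and at 1.21, 1.47 and 2.18 CPM in parental libraries, so the groups overlapped through parental replicate 3. Its log2 fold change was 0.23 (edgeR adjusted p = 0.559), and 0.45 without that library (adjusted p = 0.0395). SPANXC had 28, 16 and 25 reads against 18, 17 and 23, and SPANXD 25, 40 and 16 against 39, 39 and 51. Neither passed (log2 fold changes 0.26 and -0.64, edgeR adjusted p = 0.562 and 0.275). SPANXC and SPANXD share 97.9% of residues and have 15.1% and 28.4% own windows, so reads of one could have been lost or placed on the other. Their summed feature had a log2 fold change of -0.30 (adjusted p = 0.418).

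SPANXN4 belongs to the older N branch of the SPANX family and has all its windows to itself. It had 10, 15 and 7 reads in knockout libraries and 41, 61 and 18 in parental libraries, at 0.177, 0.272 and 0.116 CPM against 0.718, 1.02 and 0.317 CPM. The lowest parental library, replicate 3, was close to the highest knockout library. The gene fell by 1.86 on the log2 scale (SE 0.53, edgeR adjusted p = 0.0442), the only falling member of those tested. The call was made under 6 of 13 alternatives and lost with upper-quartile factors (0.0517), with limma-voom (0.0626), and without any one library other than parental replicate 3 (up to 0.152). In the fit that left this library out, the log2 fold change was -2.26 (adjusted p = 0.000106). The non-coding SPANXA2-OT1 had 8, 11 and 2 reads against 4, 4 and 0, and SPANXN3 2, 2 and 3 against 1, 1 and 3.

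SSX1, a transcriptional repressor known from the fusion gene of synovial sarcoma, had 15, 10 and 17 reads in knockout libraries and 0, 5 and 13 in parental libraries. The parental libraries were spread over the whole range, and the log2 fold change of 1.21 (SE 0.83) did not pass (edgeR adjusted p = 0.334). With parental replicate 3 left out it was 2.41 (adjusted p = 0.0111). SSX2, SSX2B, SSX3, SSX4B and SSX7 had no reads, and SSX4 and SSX5 had 2 and 1. In the GAGE family, whose products carry an antigen of melanoma, GAGE2A had 2, 1 and 2 reads against 4, 0 and 1. The 6 PAGE genes had 9 reads in knockout libraries and 5 in parental libraries, and the 5 XAGE genes 1 and 4.

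**Figure D4:**
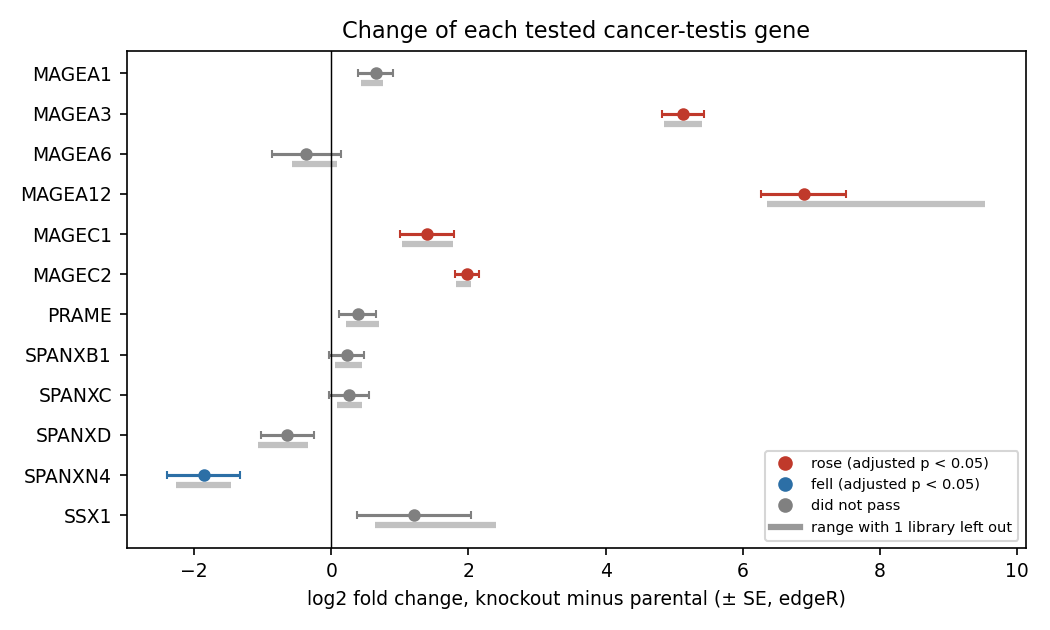
Log2 fold change (knockout minus parental) with its SE from edgeR for the 12 members tested (red rose, blue fell, grey did not pass). The grey bar under each point is the range with 1 of the 6 libraries left out in turn. MAGEA3, MAGEA12 and MAGEC2 keep bars far from 0, and the bar of MAGEA6 crosses 0.

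Below the filter, the knockout and parental reads of some members still lay apart. CTAG2, a relative of NY-ESO-1, had 0, 0 and 1 reads in knockout libraries and 8, 13 and 60 in parental libraries. The parental ratio over the knockout was 80.2 with a 95% counting interval of 14.0 to 3208, and parental replicate 3 held most of the parental reads. CT69, a non-coding gene of chromosome 6, had no read in knockout libraries and 9, 7 and 5 in parental libraries, at least 6.93-fold higher in the parental group against a limit of 3 counts over the knockout group. CT75, a non-coding gene of chromosome 2, had 1, 2 and 2 reads against 4, 8 and 16. With no low-count filter, CTAG2 (edgeR adjusted p = 0.0139), CT69 (0.012) and CT75 (0.0475) were called as falling beside SPANXN4. These were 4 of the 44 members tested in that fit, a share near the 8.49% of 33357 genes called as falling. CTAG2 was also tested in the fits without 1 knockout library and did not pass there (edgeR adjusted p between 0.0908 and 0.115). Without parental replicate 1 it was called as falling (0.0217). CT62 went the other way, with 11, 5 and 11 reads against 3, 0 and 0, a ratio of 9.09 with an interval of 2.80 to 46.8. It did not pass with no low-count filter (edgeR adjusted p = 0.0665), nor without knockout replicate 2 (0.0966) or parental replicate 2 (0.125). CT62 was called as rising without parental replicate 1 (0.0301) and without parental replicate 3 (0.0233), the latter in a fit that called 61.6% of all genes tested.

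Levels can be set beside each other only per length, as CPM per kilobase of annotated exon (RPKM), and they understate genes with few windows of their own. In the knockout libraries MAGEC2 (4.49 ± 0.35 RPKM, SD, n = 3) and SPANXB1 (4.04 ± 0.321) headed the members tested. They did not differ beyond their spread, with single libraries from 4.13 to 4.82 and from 3.81 to 4.41. PRAME followed at 2.88 ± 0.187 and MAGEA3 at 1.73 ± 0.0438, and no library of one reached the range of the other. Own windows were 100% for PRAME, 43.5% for MAGEA3 and 15.1% for SPANXC (1.03 ± 0.266 RPKM). The ranks of MAGEA3 and SPANXC among the members are therefore not settled by these values. In the parental libraries SPANXB1 (3.46 ± 1.07) and PRAME (2.21 ± 0.837) came first with overlapping libraries. MAGEC2 (1.14 ± 0.162), SPANXN4 (1.10 ± 0.566) and SPANXD (1.09 ± 0.195) were next and could not be ordered. MAGEA3 ranked 4 of the 12 in the knockout group and 10 of 12 in the parental group, and MAGEA12 ranked 6 and 12.

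Promoter windows of 300 bases were available from RefSeq for 70 of the 102 members. They held a median of 10 CpG dinucleotides (range 0 to 27) against 14 for all 27305 genes with a window, and the 16 members with at least 10 reads held a median of 11.5 against 10 for the 34 with none. The E2F-type motif TCCCGC, searched on both strands, was in 2 of those 16 and 15 of those 34, against 26.9% of all promoters. The E-box CACGTG was in 1 of 16 and 10 of 34, against 7.43%, and the ETS-type motif CCGGAA in 3 of 16 and 1 of 34, against 17.6%. Promoters of a family are copies of each other, so these counts describe families more than single genes, and a match is not a bound site.

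The lists that follow are read against the shares over all genes: 27.6% called (13.3% rising, 14.3% falling), and 61.6% called without parental replicate 3 (30.8% in each direction). None of the 12 members of the E2F6 and MGA Polycomb complex passed by edgeR, where 1 rose and 1 fell at an unadjusted p under 0.05. DESeq2 called 1 as falling, and limma-voom called none. CBX3, a chromobox protein, had 136.1 ± 3.72 CPM in the knockout and 230.7 ± 95.8 in the parental group (SD, n = 3), a log2 fold change of -0.76 (edgeR adjusted p = 0.0952). It was called as falling by DESeq2 and, at -0.42, without parental replicate 3. TFDP1, a dimer partner of E2F factors, had 109.3 ± 1.72 against 147.4 ± 63.8 CPM (-0.43, edgeR adjusted p = 0.323), and -0.06 without that library. In the fit without it, 2 of the 12 rose and 3 fell, 5 of 12 against 61.6% of all genes.

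Of 10 tested genes of DNA methylation, 2 rose, 1 fell and 7 did not pass, a share near the 27.6% of all genes, and the median log2 fold change was -0.02 against 0.02 over all genes. MBD2, a reader of methylated CpG, fell from 88.3 ± 2.0 to 59.4 ± 2.37 CPM (SD, n = 3; log2 fold change -0.57, edgeR adjusted p = 0.00469). TET1, an enzyme that oxidises methylcytosine, rose from 2.04 ± 0.904 to 4.45 ± 0.517 CPM (1.13, adjusted p = 0.0463), and ZBTB38, another reader, changed by 0.52 (adjusted p = 0.0179). Both rising calls were lost without any one knockout library, and that of ZBTB38 also without parental replicate 2, that of TET1 without parental replicate 1 or 2 (adjusted p up to 0.0885 and 0.143). The ZBTB38 call was also lost with no low-count filter (edgeR adjusted p = 0.0593). Leaving out parental replicate 3, TET1 rose by 1.5 on the log2 scale, and 6 of the list rose and 2 fell where 61.6% of all genes were called.

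Of 19 genes of heterochromatin and histone repression, 1 rose, 2 fell and 16 did not pass, against 27.6% of all genes called, with a median of -0.19. SETDB1, a histone H3 lysine methyltransferase, changed by 0.37 (edgeR adjusted p = 0.0317) while its partner ATF7IP fell by 0.61 on the log2 scale (adjusted p = 0.00977). The deacetylase gene HDAC1 fell by 0.68 (adjusted p = 0.0161). These calls were lost with single knockout libraries left out, SETDB1 and HDAC1 without any one of them and ATF7IP without replicate 1 or 3. That of SETDB1 was also lost without parental replicate 1 or 2 (adjusted p up to 0.122 over these fits). With no low-count filter the SETDB1 call was lost too (edgeR adjusted p = 0.142). In the fit without parental replicate 3, 5 of these genes rose and 7 fell, a share near the 61.6% of all genes.

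Of the type II MAGE genes, which are expressed in many tissues, 7 of 12 were tested, and 1 rose, 2 fell and 4 did not pass, 3 of 7 against 27.6% of all genes. NDN fell from 1.69 ± 0.0492 to 0.643 ± 0.125 CPM (SD, n = 3; -1.39, edgeR adjusted p = 0.00456). MAGED1 changed by -0.68 (adjusted p = 0.00978) and MAGEH1 by 0.77 (0.0167), and both calls were lost without any one knockout library. That of MAGEH1 was also lost without parental replicate 1 and with no low-count filter (edgeR adjusted p = 0.058 in the latter). When parental replicate 3 was left out, 3 rose and 3 fell, against 61.6% of all genes called.

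Of 14 ubiquitin ligases and other partners of MAGE proteins and PRAME, 4 fell, 10 did not pass and none rose by edgeR, DESeq2 or limma-voom, with none rising at an unadjusted p under 0.05 either. The 4 of 14 called all fell, against 27.6% of all genes called and 14.3% falling. TRIM31, a partner of MAGEB1, fell from 3.21 ± 0.946 to 0.0627 ± 0.0496 CPM (SD, n = 3; -5.61, edgeR adjusted p = 0.000732). LNX1, a partner of MAGEB18, fell from 3.0 ± 0.602 to 0.268 ± 0.0443 CPM (-3.48, adjusted p = 0.000276), and PJA1, a partner of MAGED1, changed by -0.78 (adjusted p = 0.00615). TRIM28, the partner of MAGEA3 and MAGEC2, had 443.8 ± 9.81 CPM in the knockout and 585.3 ± 235 in the parental group, where replicate 3 stood at 856.4 CPM (-0.40, adjusted p = 0.333). Without parental replicate 3, 1 of the list rose and 8 fell, against 61.6% of all genes called and 30.8% in each direction.

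Of 46 other cancer-testis and germline genes outside the symbol families, 14 had no read in any library and 12 were tested, of which 1 rose (CSAG1), 2 fell and 9 did not pass, 3 of 12 against 27.6% of all genes. The genes that fell were IGF2BP3, an RNA-binding protein (-0.49, edgeR adjusted p = 0.011), and CABYR, a sperm tail protein (-1.74, adjusted p = 0.0432), both lost without any one knockout library (up to 0.0747 and 0.143) and the latter also by limma-voom. CABYR stood at 15.6, 15.6 and 49.6 CPM in parental libraries, and its log2 fold change without parental replicate 3 was -0.999. CTCFL, the germline paralog of CTCF and a regulator of cancer-testis genes, had no read. Without parental replicate 3, 2 of the list rose and 4 fell, 6 of 12 against 61.6% of all genes.

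Markers of male germ cells were at or near 0. Their 8 genes summed to 0.254 to 0.477 CPM in knockout libraries and 0.475 to 0.687 CPM in parental libraries, 3 of them had no read, and the germ cell marker DDX4 had 0 reads in the knockout and 11 in the parental group. Both tested markers, PIWIL1 and SYCP3, failed to pass by edgeR, DESeq2 and limma-voom, with 1 falling at an unadjusted p under 0.05. PIWIL1 was called as falling without parental replicate 3. Of 6 tested lung carcinoma epithelium markers 5 fell, and the sum of the 8 listed was 3164 to 3426 CPM in the knockout and 6695 to 8111 CPM in the parental libraries. Sums over 5 blood cell markers were 0.436 to 0.729 against 1.37 to 1.86 CPM, over 5 fibroblast markers 53.3 to 58.0 against 39.2 to 109.9 CPM, and over 4 endothelium markers 0.907 to 1.40 against 0.510 to 0.560 CPM. In the tests 2 of 3 blood cell markers fell. Of 3 fibroblast markers tested 2 rose and 1 fell, and 1 of 2 endothelium markers rose. The latter, CDH5 (log2 fold change 2.74, edgeR adjusted p = 0.0147), lost its call without knockout replicate 1 or 3 or parental replicate 1 (up to 0.0641). Without parental replicate 3 all 7 epithelium markers tested fell, where 61.6% of all genes were called. Of 3 endothelium markers tested in that fit, 2 rose and 1 fell, and the blood cell and fibroblast counts stayed the same. The fibroblast sum hides unequal members. LUM, a matrix proteoglycan, rose from 0.368 ± 0.0168 to 26.8 ± 2.40 CPM (SD, n = 3; log2 fold change 6.18, edgeR adjusted p = 8.98e-06). COL3A1, a fibrillar collagen chain, rose from 0.158 ± 0.200 to 5.10 ± 0.0918 CPM (5.00, adjusted p = 0.00562). COL1A1, another collagen chain, fell by 1.46 on the log2 scale (adjusted p = 0.0408), and by 0.89 without parental replicate 3, and lost its call without any one knockout library and by limma-voom. Whether these other differences between the groups bear on the cancer-testis genes was not tested.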

How the data were processed

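Gene read counts of 6 libraries (3 knockout, 3 parental) were used as deposited by the authors. The submitters' processing notes name TopHat2 2.1.1, HTSeq 0.11.0 and hg38. Read length, strand setting and annotation release were not given in the sources used here, and per the labels' protocols the libraries were made with a DNA library kit. The 5 classes of unassigned reads (13.8% to 15.3%) stayed out of library sizes and tests.

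After filterByExpr and TMM scaling, counts were tested in edgeR 4.0.16 under R 4.3.3 (robust quasi-likelihood F-test, two-sided, group as the only term), with Benjamini-Hochberg adjustment over 17809 genes. SE was derived from the F value. The fit was tested on simulated data. Alternatives were DESeq2 1.42.0, limma-voom (limma 3.58.1), RLE or upper-quartile factors, no filter, a filter of 1 CPM in 3 libraries, a replicate block, leaving out single libraries, and summing near-identical copies (at least 95% of residues).

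Named genes are all tested members, untested members with at least 10 reads, and per list up to 3 passing genes by smallest adjusted p, or, with none passing, the 2 of highest mean CPM. TRIM28, CTCFL, DDX4 and MAGEC3, with other members under 10 reads, are named outside this rule and were chosen after their values were seen. Cell type marker lists are given mainly as counts and sums. Against the naming rule, the epithelium and blood cell markers that passed are left unnamed. Members and lists were chosen with earlier results of these data known. Positions are from GENCODE 29 (GRCh38). Promoters are from RefSeq (GRCh38.p14). Windows of 50 bases were compared between annotated transcripts on both strands, not with the whole genome. Counting intervals are exact binomial at 95%.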

Additional observations from a re-analysis of the deposited data

How the results depend on the processing

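The count of all genes changed was 4912, 3040 with the replicate block, and between 2692 and 11325 with 1 library left out, highest without parental replicate 3. Cancer-testis members that rose numbered 4 of 12 tested, against 13.3% of all genes. Which members are tested depends on the levels in each group, so counts of rising and falling members are a description. MAGEA3 and MAGEA12, for example, reached the filter level in knockout libraries only. With 1 library left out, members that rose numbered between 3 and 8, of 13 or 14 tested. Without parental replicate 3 the 8 were MAGEA3, MAGEA12, MAGEC1, MAGEC2, PRAME, SPANXB1, SSX1 and CT62. They were 8 of 13 tested, in a fit where 30.8% of all genes rose and 61.6% were called. Members that fell numbered 1 of 12 (SPANXN4), against 14.3% of all genes. None fell by edgeR with upper-quartile factors (0, with 1 at an unadjusted p under 0.05) or by limma-voom (0, with 1 unadjusted). With at least 1 CPM in 3 libraries the count was also 0, and 0 unadjusted, where SPANXN4 was not tested. DESeq2 called 1. With no low-count filter 4 of 44 members tested fell, near the 8.49% of all genes. With 1 library left out, between 0 and 1 fell by edgeR, with 1 to 3 falling at an unadjusted p in the fits that called 0. The gene that fell was CTAG2 without parental replicate 1 (adjusted p = 0.0217), where SPANXN4 and MAGEC1 were lost and CT62 rose (0.0301), and SPANXN4 without parental replicate 3. The MAGEA6 log2 fold change was -0.37, and between -0.57 and 0.0789 with 1 library left out, above 0 without parental replicate 3. It passed in none of the 12 alternatives that tested it. MAGEA3, MAGEA12 and MAGEC2 kept direction and call in every alternative that tested them. The cause of the other changes was not tested.

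Replicate numbers did not pair the libraries: deviations from group means correlated at -0.0487, -4.24e-05 and -0.0743 for numbers 1, 2 and 3. With the replicate block, members that rose numbered 3 of 12, MAGEC1 being lost (edgeR adjusted p = 0.105), and 1 fell. Of all 17809 genes in that fit, 1378 rose and 1662 fell. Among other genes named, the block also lost ZBTB38, TET1, HDAC1, SETDB1, MAGED1, MAGEH1, IGF2BP3, CABYR, COL1A1 and CDH5 (adjusted p between 0.0518 and 0.101). Depth limits the untested members, 58 of which had no read, and the 52 members with under 50% windows of their own are limited at any depth by sequence shared with other genes.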
